A study of Homo sapiens with 21 samples.

Results

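The RNA levels of 5 nicotinic acetylcholine receptor subunit genes, CHRNA3, CHRNB4, CHRNA5, CHRNA7 and CHRNB2, were followed across the 7 groups of a neuroblastoma cell line experiment. These genes were chosen by symbol, as 5 of the 57820 rows of the deposited expression table, with the rise of CHRNA3 under trametinib in control cells already known. Which result led to the choice is not recorded, and that rise was taken as the reason. Comparisons that use control-line (sgCON) libraries are therefore given for these genes as description, without a test, and tests are given only for differences between the other groups. Earlier results in those groups may also have been known, so these tests may not be free of the choice. The sgCON libraries still enter the estimate of the spread that all tests share.

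Nicotinic receptors are ligand-gated cation channels made of a ring of subunits, with acetylcholine bound at the faces between an alpha subunit and its neighbour. The receptor of CHRNA3 with CHRNB4 carries fast transmission in autonomic ganglia, and CHRNA5 joins it as an accessory subunit. CHRNA7 forms channels of its own kind with high calcium permeability, and CHRNB2 pairs with several alpha subunits in brain and ganglia. Neuroblastoma arises from the sympathetic lineage, in which ganglionic receptor genes are normally active.

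Total RNA was sequenced from NLF, a human neuroblastoma line, in 7 groups of 3 libraries. The groups were the unedited parental line in DMSO, a control line carrying Cas9 and a scrambled guide (sgCON) in DMSO or in trametinib, and 2 lines with YAP1 knocked out by different guides (YAPKO1 and YAPKO2), each in DMSO or in trametinib. Trametinib, an inhibitor of the MEK kinases, was given at 20 nM for 72 h, and YAP1 encodes a transcriptional coactivator restrained by the Hippo pathway. All groups share the NLF background, and the sgCON and knockout lines also share exposure to Cas9. Each knockout guide is represented by 1 line, so an effect of losing YAP1 and a property of that line cannot be told apart, and the labels do not say whether a line is a clone or whether the 3 libraries are separate cultures. The p-values therefore measure the spread between these libraries, which may be technical.

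Levels are FPKM (fragments counted per unit of transcript length and of library size) scaled between libraries, and changes are log2 of (FPKM + 0.5) ± SE, fitted with limma over 16194 genes. Genes with an adjusted p under 0.05 (Benjamini-Hochberg, over all tested genes) are described as called. Each library had 13728 to 14425 genes at an FPKM of 1 or more, and the number of reads behind a value is unknown. The representation of GC-rich against GC-poor genes differed between libraries, with a log2 trend of -0.60 at the low end (parental replicate 1) and 1.34 at the high end (replicate 2 of treated YAPKO2). It also differed between groups. In DMSO it was -0.60 to -0.55 for parental, -0.48 to -0.38 for sgCON, -0.40 to 0.68 for YAPKO1 and 0.09 to 0.62 for YAPKO2. Comparisons of the knockout lines with parental cells therefore also differ in GC representation. In DMSO, YAP1 RNA averaged 25.6 FPKM in the sgCON line, against 11.7 for YAPKO1 and 2.89 for YAPKO2. Of the neuroblastoma markers, HAND2, GATA3 and ISL1 were present in every group, while TH was at 0 in all 6 sgCON libraries and at most 0.511 elsewhere. All 6 fibroblast markers had a mean of 1 or more in every group, and they did not move together: from parental cells to YAPKO2 with trametinib, mean LUM went from 573 to 80.1 and COL3A1 from 169 to 37.6, while DCN went from 98.7 to 123 and PDGFRB from 15.5 to 15.3. The 4 Schwann cell markers summed to 1.39 to 4.27 over all libraries and the 4 blood and endothelial markers to 0.166 to 13.1, with CD3E at 0 throughout. In bulk RNA, fewer cells of a type and less RNA per cell cannot be told apart.

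CHRNA5, CHRNA3 and CHRNB4 lie side by side on chromosome 15 in the GRCh38 annotation of GENCODE. CHRNA5 spans 78565520 to 78595269 on the plus strand, CHRNA3 spans 78593052 to 78621295 on the minus strand and CHRNB4 spans 78624119 to 78727754 on the minus strand. CHRNA7 lies far from them on the same chromosome, at 31923438 to 32173018, and CHRNB2 lies on chromosome 1 at 154567781 to 154580026. CHRNA5 and CHRNA3 share 198 exonic bases on opposite strands, which is 5.47% of the exonic length of CHRNA5 and 4.16% of that of CHRNA3. An antisense gene also covers 23% of the exonic bases of CHRNA5, and another covers 5.45% of those of CHRNB2. A pseudogene on the opposite strand covers 3.32% of those of CHRNB4, and CHRFAM7A is a near-identical partial copy of CHRNA7. Whether the counting used strand is not stated in the sources used here, so reads in these stretches are uncertain.

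The sequence upstream of the start was read because CHRNA3 and CHRNB4 moved together while the other beta subunit gene, CHRNB2, was near 0 in most groups. This covered 4 of the 5 genes, since the RefSeq promoter set used here held no entry for CHRNA5. RefSeq windows of 250 bases before the start (GRCh38.p14) were searched on both strands for 5 motifs, which were chosen after the sequences had been seen, with overlapping matches counted separately. The printed stretches are those outside every GENCODE exon, and capitals mark a motif match lying wholly inside the stretch. The whole CHRNA3 window lies inside GENCODE exons and is not printed. The windows of CHRNA3, CHRNB4 and CHRNA7 lie inside the GENCODE gene spans given above, because the RefSeq starts used differ from the ends of those spans. The CHRNB4 stretch is chr15:78641246-78641460 (minus strand) and the CHRNB2 stretch is chr1:154567528-154567777 (plus strand).
CHRNB4: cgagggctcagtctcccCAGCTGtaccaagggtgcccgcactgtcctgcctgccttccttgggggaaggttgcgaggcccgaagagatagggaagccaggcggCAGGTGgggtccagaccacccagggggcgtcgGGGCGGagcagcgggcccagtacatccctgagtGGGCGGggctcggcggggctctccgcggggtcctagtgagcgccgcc
CHRNB2: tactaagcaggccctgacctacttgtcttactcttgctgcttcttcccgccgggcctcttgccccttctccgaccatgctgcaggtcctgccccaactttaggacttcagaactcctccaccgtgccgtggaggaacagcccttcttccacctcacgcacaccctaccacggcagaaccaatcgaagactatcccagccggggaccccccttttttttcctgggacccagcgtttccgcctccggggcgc
The GC box GGGCGG, which 42.3% of 27305 promoters hold, matched 4 times for CHRNA3, 3 times for CHRNB4, 6 times in each of the overlapping windows of CHRNA7 and not for CHRNB2. The E-box CANNTG, held by 62.2% of promoters, matched once for CHRNA3 and in each CHRNA7 window, 2 times for CHRNB4 and not for CHRNB2. The ETS core CCGGAA, held by 14.8%, matched once for CHRNA3 and for none of the other 3. The TEAD core GGAATG (11.9% of promoters) and the AP-1 site TGANTCA (6.6%) matched none of the 4. These are matches of letters in a window and say nothing of binding. The windows also differed in base composition. GC made up 73.6% of the window for CHRNA3, 72.4% for CHRNB4, 80.4% and 79.2% for CHRNA7 and 60.4% for CHRNB2. The median over all promoters was 58%.

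CHRNA3, the ligand-binding alpha subunit of the ganglionic receptor, was lowest in sgCON and parental cells in DMSO and highest in YAPKO2 with trametinib. The 3 libraries held 14.3, 21 and 19.2 FPKM in parental cells and 16.9, 12.3 and 14.7 in sgCON in DMSO. With trametinib, sgCON held 56.5, 46.1 and 45.4. The parental and sgCON groups in DMSO overlapped each other, and every sgCON library with the drug lay above all 6 of them. YAPKO1 held 64.7, 63.0 and 62.6 in DMSO and 117, 129 and 132 in trametinib. YAPKO2 held 149, 155 and 152 in DMSO and 315, 348 and 302 in trametinib. From sgCON with trametinib upward, no 2 neighbouring groups overlapped, and YAPKO2 in DMSO lay above YAPKO1 in trametinib.

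**Figure D1:**
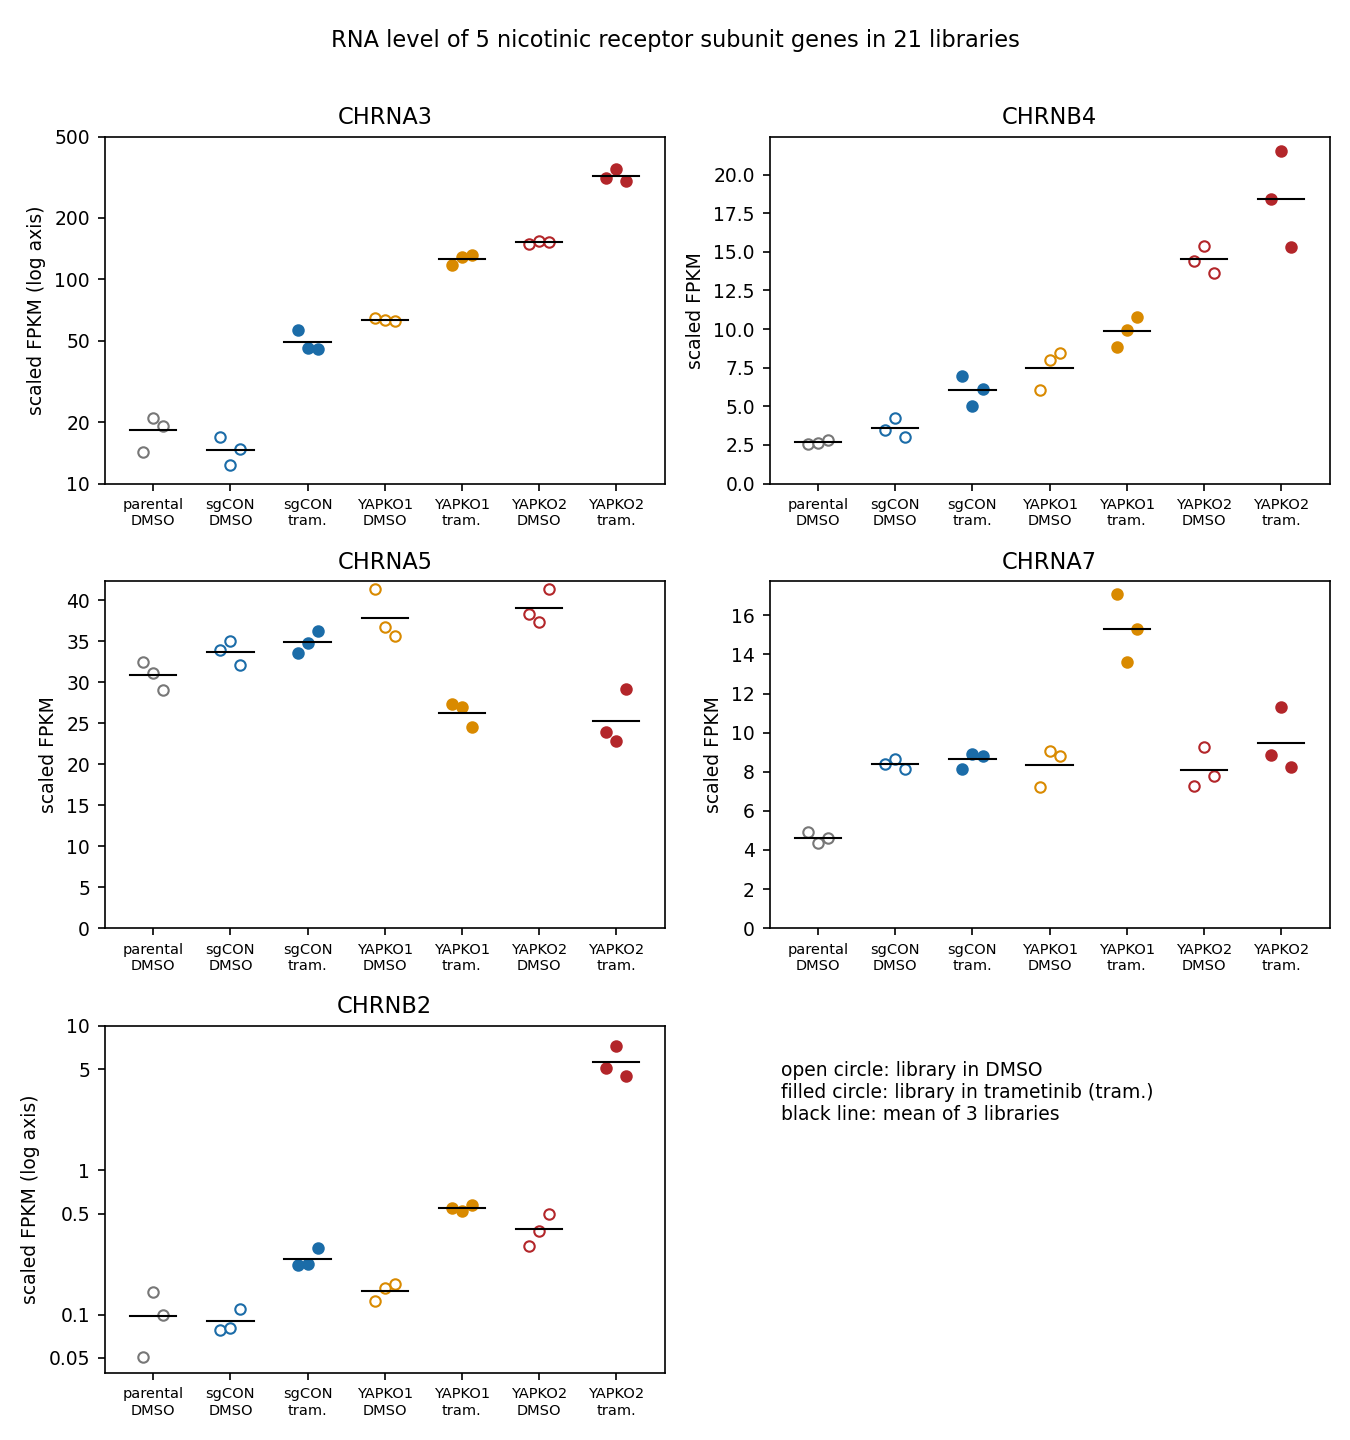
Scaled FPKM of the 5 subunit genes in each of 21 libraries, by line and treatment, with a log axis for CHRNA3 and CHRNB2 and an axis from 0 for the others. Circles are libraries (open in DMSO, filled in trametinib) and black lines are means of 3. CHRNA3 and CHRNB4 climb from the left groups to YAPKO2, CHRNA5 is lowest in the knockout lines with the drug, CHRNA7 is highest in YAPKO1 with the drug, and CHRNB2 reaches 4.50 to 7.25 in 1 group.

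Trametinib raised CHRNA3 in both knockout lines. In YAPKO1, where 7.82% of all tested genes were called, its change was 0.98 ± 0.13 (limma adjusted p = 0.000118). In YAPKO2, where 19.9% were called, it was 1.08 ± 0.13 (limma adjusted p = 1.87e-05). In sgCON, where 5.17% of genes were called, the value was 1.72 ± 0.13, given without a test because it was known when the genes were chosen. Group means rose 3.37-fold for the sgCON line, 1.98-fold for YAPKO1 and 2.12-fold for YAPKO2, whereas the added FPKM was 34.7, 62.4 and 170. The line with the largest fold thus had the smallest added level. The response of YAPKO2 minus that of YAPKO1 was 0.10 ± 0.19 (limma adjusted p = 0.987), a comparison in which 0.803% of genes were called.

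Without the drug, CHRNA3 was higher in both knockout lines than in parental cells. YAPKO1 exceeded them by 1.79 ± 0.13 (limma adjusted p = 3.01e-08; 27.1% of genes called) and YAPKO2 by 3.05 ± 0.13 (limma adjusted p = 1.73e-11; 37.6% called). YAPKO2 exceeded YAPKO1 by 1.25 ± 0.13 in DMSO (limma adjusted p = 6.72e-06; 6.93% called) and by 1.35 ± 0.13 in trametinib (limma adjusted p = 2.16e-06; 14.1% called). The 2 comparisons with parental cells share those libraries. All 7 tested comparisons of CHRNA3 kept their direction and side of the threshold under each of the alternatives run. Of the neuroblastoma markers, GATA3 had a mean of 14.8 FPKM in parental cells and 27.7 in YAPKO2 with trametinib. HAND2 had 65.6 and 85.8 in these groups, and ISL1 had 32.1 and 32.6. The 6 fibroblast markers summed to 836 to 905 in parental libraries, 219 to 493 in YAPKO1 and 381 to 615 in YAPKO2 in DMSO, and 200 to 345 in YAPKO2 with trametinib. In YAPKO2 against parental cells in DMSO, limma called 3 of the 6 higher, DCN among them, and 2 lower. Their part in the result was not tested.

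CHRNB4, the beta subunit that completes the ganglionic receptor, followed a similar order at a lower level. Its libraries held 2.57, 2.64 and 2.82 FPKM in parental cells, 3.47, 4.24 and 3.04 in sgCON, and 6.97, 5.03 and 6.12 in sgCON with trametinib. YAPKO1 held 6.07, 8.01 and 8.44 in DMSO and 8.86, 9.94 and 10.8 in trametinib. YAPKO2 held 14.4, 15.4 and 13.6 in DMSO and 18.4, 21.5 and 15.3 in trametinib. The ranges of sgCON with trametinib and YAPKO1 in DMSO overlapped, as did both YAPKO2 groups.

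CHRNB4 was higher than in parental cells by 1.32 ± 0.15 in YAPKO1 (limma adjusted p = 7.14e-06) and by 2.24 ± 0.15 in YAPKO2 (limma adjusted p = 6.82e-09). GC correction lowered these values to 1.13 and 1.94 (limma adjusted p = 2.77e-06 and 2.13e-09). YAPKO2 exceeded YAPKO1 by 0.91 ± 0.15 in DMSO (limma adjusted p = 0.000882) and by 0.86 ± 0.15 in trametinib (limma adjusted p = 0.000959), the latter not passing when only those groups were fitted (limma adjusted p = 0.0711). With trametinib the value was 0.38 ± 0.15 in YAPKO1 and 0.32 ± 0.15 in YAPKO2, and neither passed the test (limma adjusted p = 0.156 in each). Without YAPKO2 trametinib replicate 3 the YAPKO2 value became 0.45 and passed (limma adjusted p = 0.046). In sgCON the untested value was 0.68 ± 0.15. The ratio of CHRNA3 to CHRNB4 was 4.2 ± 1.14 (SD, n = 3) in sgCON, 10.5 ± 0.572 in YAPKO2 in DMSO and 17.7 ± 1.84 in YAPKO2 with trametinib.

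**Figure D2:**
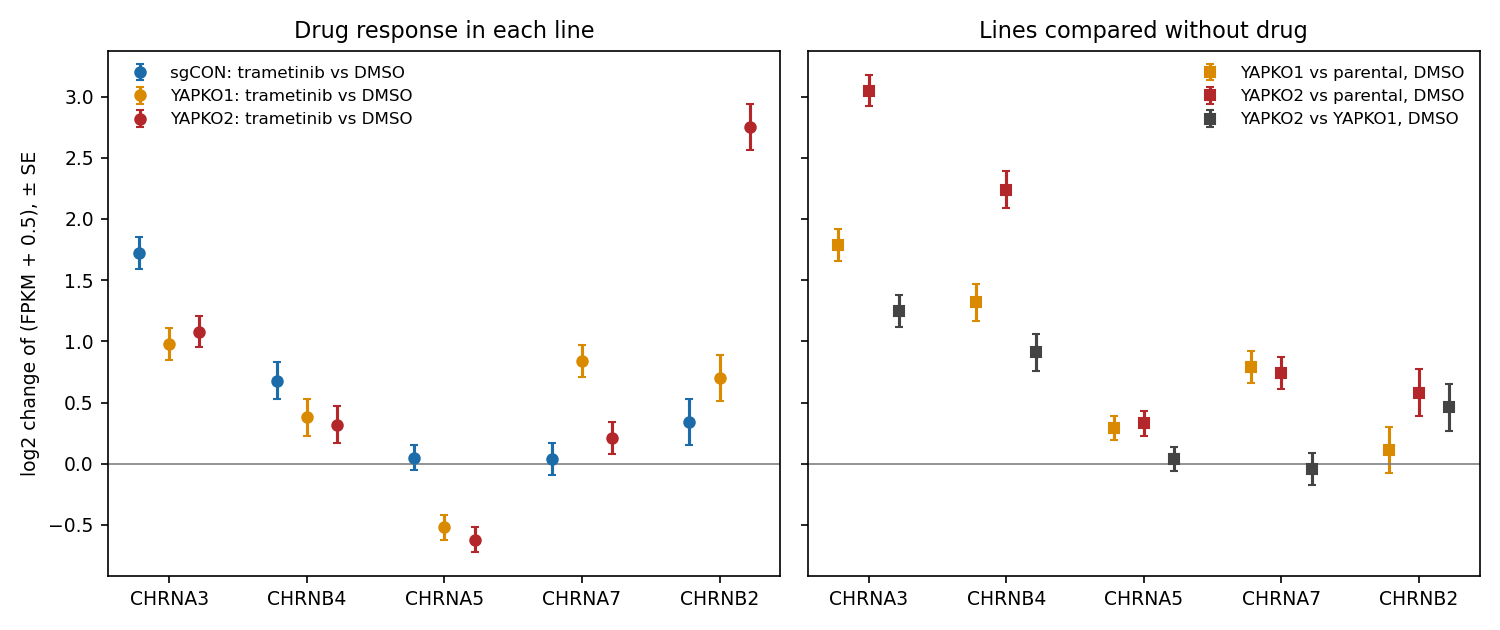
Log2 change of (FPKM + 0.5) ± SE from limma for each subunit gene, on the left trametinib against DMSO in each line and on the right lines compared in DMSO. CHRNA3 lies above 0 in all 6 comparisons drawn, and CHRNA5 lies below 0 with trametinib in both knockout lines, at -0.52 and -0.62.

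CHRNA5, the accessory subunit, was the most abundant of the 5 in parental and sgCON cells in DMSO and changed in the opposite direction to CHRNA3 with trametinib in the knockout lines. It held 32.5, 31.1 and 29.1 FPKM in parental cells, 34.0, 35.0 and 32.1 in sgCON, and 33.6, 34.8 and 36.3 in sgCON with trametinib. YAPKO1 fell from 41.4, 36.8 and 35.6 in DMSO to 27.4, 27.0 and 24.6 in trametinib. YAPKO2 fell from 38.4, 37.4 and 41.4 to 24.0, 22.8 and 29.2. Each knockout line's treated libraries lay below all its DMSO libraries, and the 2 treated knockout groups overlapped. On the log2 scale YAPKO1 changed by -0.52 ± 0.10 (limma adjusted p = 0.00244) and YAPKO2 by -0.62 ± 0.10 (limma adjusted p = 0.000174), while the untested value in sgCON was 0.05 ± 0.10. Neither passed when only the groups compared were fitted (limma adjusted p = 0.091 and 0.0591). The response difference between the knockout lines was -0.11 ± 0.14 (limma adjusted p = 0.963).

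Against parental cells in DMSO, CHRNA5 was higher by 0.29 ± 0.10 in YAPKO1 (limma adjusted p = 0.0335) and by 0.33 ± 0.10 in YAPKO2 (limma adjusted p = 0.0119). GC correction raised these values to 0.49 and 0.63 (limma adjusted p = 5.04e-05 and 2.44e-06). Without the correction, leaving out single libraries ended both calls. The YAPKO1 call was lost without parental replicate 2 or 3 or YAPKO1 DMSO replicate 1 or 2, with a value down to 0.23 and a limma adjusted p up to 0.125. The YAPKO2 call was lost without parental replicate 3 or YAPKO2 DMSO replicate 3, each at 0.29, with a limma adjusted p up to 0.0557. The lines did not pass the test against each other, at 0.04 ± 0.10 in DMSO and -0.06 ± 0.10 in trametinib (limma adjusted p = 0.861 and 0.743).

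The make-up of the summed RNA of the 5 genes changed with these levels. CHRNA5 was 55.8 ± 2.06% of the sum in sgCON and 6.72 ± 1.32% in YAPKO2 with trametinib, whereas CHRNA3 was 24.2 ± 3.42% and 84.5 ± 0.41% (SD, n = 3). CHRNA7 went from 13.9 ± 0.512% to 2.48 ± 0.242%. CHRNB4 stayed between 4.74% and 6.76% of the sum in all 7 group means. The sum itself was 60.4 ± 2.41 FPKM in sgCON and 380 ± 27.4 in YAPKO2 with trametinib. The ratio of CHRNA3 to CHRNA5 was 0.435 ± 0.0762 and 12.9 ± 2.48 in those groups. These are shares of RNA and not of protein or of receptors.

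**Figure D3:**
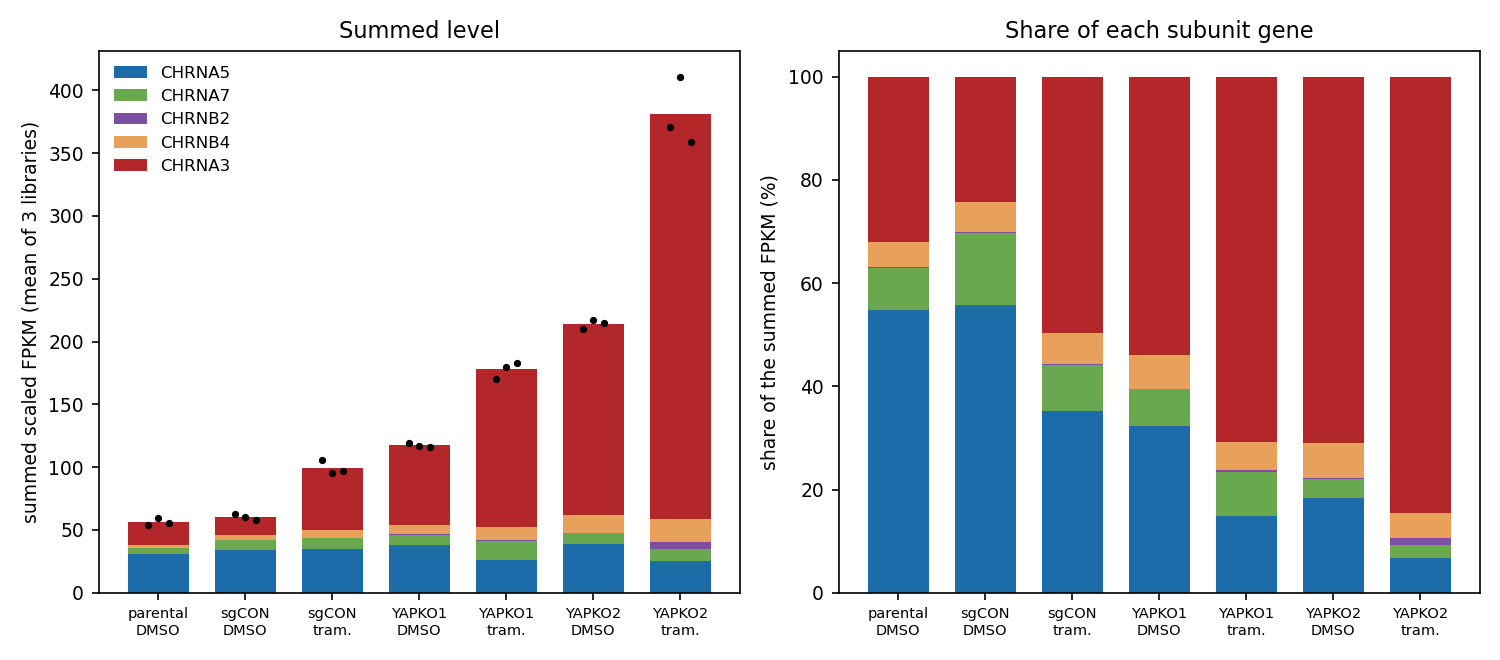
Left, summed scaled FPKM of the 5 subunit genes as stacked means of 3 libraries, with black points for the sum in each library. Right, the share of each gene in that sum in percent, as the mean of 3 libraries. CHRNA5 is the largest share in parental and sgCON cells in DMSO (54.8% and 55.8%), and CHRNA3 is the largest share in the other groups, up to 84.5%.

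CHRNA7, whose product forms receptors without a beta subunit, was highest in YAPKO1 with trametinib. It held 4.93, 4.33 and 4.63 FPKM in parental cells, 8.42, 8.66 and 8.16 in sgCON, and 8.16, 8.91 and 8.83 in sgCON with trametinib. YAPKO1 held 7.24, 9.08 and 8.78 in DMSO and 17.1, 13.6 and 15.3 in trametinib. YAPKO2 held 7.27, 9.25 and 7.78 in DMSO and 8.88, 11.3 and 8.25 in trametinib. Parental cells lay below every other library and YAPKO1 with trametinib above every other, while the 5 groups between them overlapped their neighbours.

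Trametinib raised CHRNA7 in YAPKO1 by 0.84 ± 0.13 (limma adjusted p = 0.000436), a call lost when only the groups compared were fitted (limma adjusted p = 0.0664). In YAPKO2 the value was 0.21 ± 0.13 (limma adjusted p = 0.285). The response difference of -0.63 ± 0.18 did not pass the test (limma adjusted p = 0.161), although it did without YAPKO2 trametinib replicate 2 (-0.76, limma adjusted p = 0.0445). In trametinib, YAPKO2 lay below YAPKO1 by 0.67 on the log2 scale (limma adjusted p = 0.00167), which did not pass when only those groups were fitted (limma adjusted p = 0.127). Against parental cells CHRNA7 was higher by 0.79 ± 0.13 in YAPKO1 (limma adjusted p = 0.000248) and by 0.74 ± 0.13 in YAPKO2 (limma adjusted p = 0.000279). The untested value of sgCON against parental cells was of similar size, 0.80 ± 0.13. CHRFAM7A, the partial copy, ranged from 0 to 3.11 FPKM over the libraries and was not called with trametinib in any of the 3 lines.

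CHRNB2, the alternative beta subunit, reached an FPKM of 1 in 3 of 21 libraries, all of them YAPKO2 with trametinib. It passed the filter on low values only through that group, so a difference of that group from others was built into its selection, and comparisons holding that group are given for it without a test. Its libraries held 0.0506, 0.144 and 0.0991 FPKM in parental cells, 0.0786, 0.0807 and 0.110 in sgCON, and 0.219, 0.225 and 0.288 in sgCON with trametinib. YAPKO1 held 0.125, 0.152 and 0.162 in DMSO and 0.550, 0.518 and 0.577 in trametinib. YAPKO2 held 0.3, 0.38 and 0.5 in DMSO and 5.09, 7.25 and 4.50 in trametinib. In each line the treated libraries lay above all DMSO libraries of that line. At levels this low the pseudocount shrinks the fold: group means with trametinib were 2.72-fold those in DMSO for sgCON, 3.76-fold for YAPKO1 and 14.3-fold for YAPKO2.

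Every library in the 4 comparisons tested for CHRNB2 lay below an FPKM of 1, so these groups would not pass the filter by themselves. YAPKO2 with trametinib also still entered the spread that these tests share. On the log2 scale CHRNB2 changed with trametinib by 0.70 ± 0.19 in YAPKO1 (limma adjusted p = 0.0309). That call was lost when only the groups compared were fitted (limma adjusted p = 0.114). It was also lost without YAPKO1 DMSO replicate 1 or 2 or any one of the 3 YAPKO1 trametinib libraries, with a limma adjusted p up to 0.0965. The untested values that hold YAPKO2 with trametinib were 2.75 ± 0.19 for its response, 2.06 ± 0.27 for its response minus that of YAPKO1, and 2.52 ± 0.19 for YAPKO2 against YAPKO1 in trametinib. In DMSO the lines differed by 0.46 ± 0.19 (limma adjusted p = 0.187). Against parental cells in DMSO, YAPKO1 stood at 0.11 ± 0.19 (limma adjusted p = 0.69) and YAPKO2 at 0.58 ± 0.19 (limma adjusted p = 0.0253). The latter call was lost without parental replicate 1 or 3 or YAPKO2 DMSO replicate 2 or 3, with a value down to 0.49 and a limma adjusted p up to 0.0931. The ratio of CHRNB4 to CHRNB2 was 38.6 ± 10.6 in YAPKO2 in DMSO and 3.33 ± 0.333 with trametinib (SD, n = 3).

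The neighbours of the chromosome 15 cluster did not share 1 direction with trametinib. Of 8 neighbouring genes 7 were tested, with median changes of 0.03 (sgCON), -0.02 (YAPKO1) and -0.32 (YAPKO2) beside medians of all tested genes of -0.00, -0.01 and -0.01. HYKK, a hydroxylysine kinase gene, rose by 1.03 ± 0.29 in sgCON (limma adjusted p = 0.0445) and by 1.15 ± 0.29 in YAPKO2 (limma adjusted p = 0.00862). CRABP1, a retinoic acid binding protein gene, fell by 0.96 in YAPKO1 and by 1.08 in YAPKO2 on the log2 scale (limma adjusted p = 0.0115 and 0.00193). MORF4L1 fell by 0.32 in YAPKO2 (limma adjusted p = 0.0154). ADAMTS7, beside CHRNB4, and PSMA4, beside CHRNA5, were called in none of the 3 lines. MORF4L1, ADAMTS7 and PSMA4 were named after their values had been seen. Of 5 genes around CHRNA7, 3 were tested and KLF13 alone was called, in YAPKO2 (0.29 ± 0.10, limma adjusted p = 0.0489), where 19.9% of all tested genes were called.

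**Figure D4:**
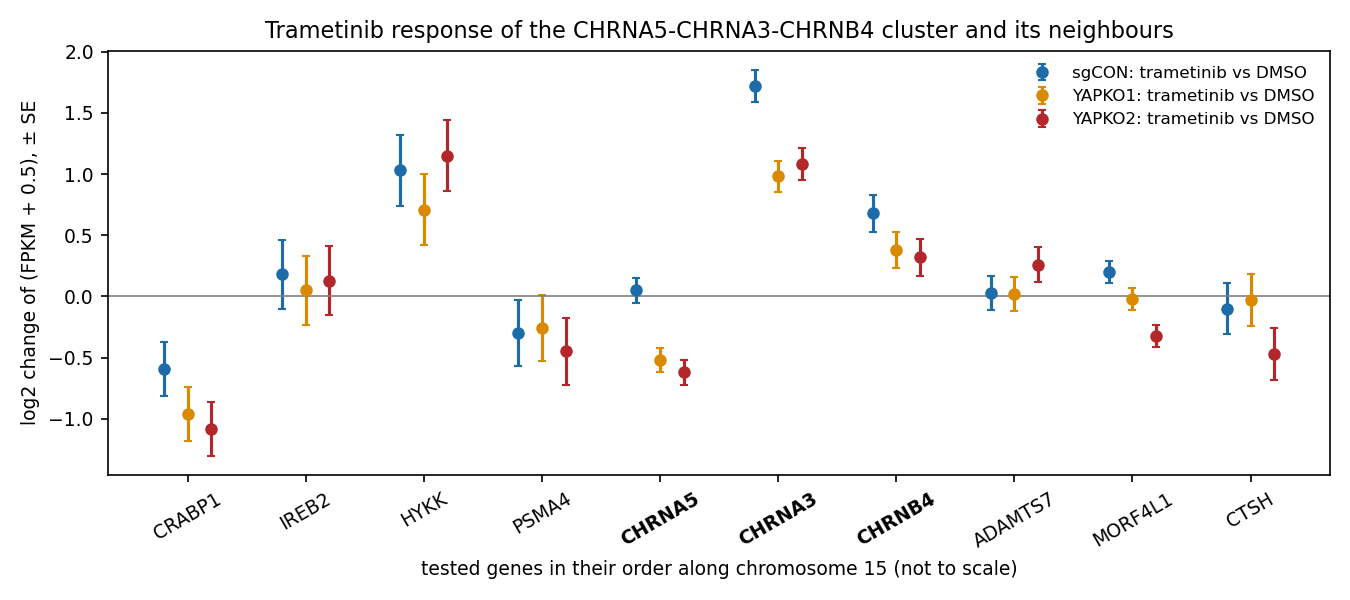
Log2 change of (FPKM + 0.5) with trametinib ± SE from limma in sgCON, YAPKO1 and YAPKO2, for tested genes in their order along chromosome 15 (spacing not to scale; subunit genes in bold). CHRNA3 (1.72, 0.98 and 1.08) stands above CHRNA5 (0.05, -0.52 and -0.62), the gene next to it.

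Most other nicotinic subunit genes were too low to test. Of 12, counting CHRFAM7A, 9 did not pass the filter. Of the 3 tested, 1 was called with trametinib in each knockout line and 0 by limma in sgCON (1 at an unadjusted p under 0.05), where 7.82% (YAPKO1), 19.9% (YAPKO2) and 5.17% (sgCON) of all tested genes were called. That gene was CHRNB1, the muscle-type beta subunit, which rose from 4.98, 6.07 and 5.49 FPKM to 9.63, 10.4 and 8.85 in YAPKO1 and from 6.71, 7.51 and 7.91 to 13.4, 13.6 and 12.9 in YAPKO2. The changes were 0.75 ± 0.12 and 0.81 ± 0.12 (limma adjusted p = 0.000714 and 0.000135), with treated libraries above all DMSO libraries of each line. Of 17 other genes of the same channel superfamily (serotonin, GABA and glycine receptors) 4 were tested, and limma called 0 with trametinib in each of the 3 lines (0 at an unadjusted p under 0.05 too).

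Genes for assembly and for accessory proteins moved in both directions. Of 8 tested, 1 rose and 2 fell in YAPKO1, 2 rose and 2 fell in YAPKO2, and 1 fell in sgCON, beside 7.82%, 19.9% and 5.17% of all tested genes called in these lines. TMEM35A, whose product is a chaperone for CHRNA7 receptors, rose by 0.64 ± 0.13 in YAPKO1 and by 0.75 ± 0.13 in YAPKO2 (limma adjusted p = 0.00492 and 0.000471). LYPD6, which encodes a membrane-anchored modulator of these receptors, fell by 0.48 and by 0.45 on the log2 scale (limma adjusted p = 0.0174 and 0.0122). LYPD6B, its relative, fell by 1.62 in YAPKO1 and by 1.03 in sgCON (limma adjusted p = 4.03e-05 and 0.00393). In YAPKO2, where LYPD6B was already at 0.838 in DMSO, it was not called. LYNX1, a modulator of the same family, rose by 0.85 ± 0.21 and UBQLN1 fell by 0.24 in YAPKO2 (limma adjusted p = 0.00914 and 0.0309).

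Genes for acetylcholine handling were mostly untested, with 2 of 7 passing the filter. SLC5A7, the choline transporter, rose by 0.73 ± 0.20 with trametinib in YAPKO1 (limma adjusted p = 0.0343). It was not called in sgCON or YAPKO2. Its sgCON libraries with the drug (4.83 to 5.57 FPKM) still lay above those in DMSO (2.8 to 3.06), while the YAPKO2 groups overlapped. Of the muscarinic receptor genes, which encode the G protein-coupled acetylcholine receptors, 3 passed the filter. CHRM1 changed with trametinib by 0.98 ± 0.25 in YAPKO1 and by 1.23 ± 0.25 in YAPKO2. In scaled FPKM it reached 1 only in knockout libraries with trametinib, and its highest value in DMSO was 0.91. A rise was therefore partly built into its selection, and no test is given for CHRM1. CHRM2 rose by 1.52 ± 0.28 in sgCON (limma adjusted p = 0.00276), and CHRM3 fell by 0.85 in YAPKO2 (limma adjusted p = 0.0071). The YAPKO1 libraries also held more CHRM2 with the drug (14.8 to 18.2 FPKM) than in DMSO (5.18 to 13), while the YAPKO2 groups overlapped.

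GATA2, GATA3 and PHOX2A, transcription factor genes of the sympathetic lineage, were also measured. With trametinib GATA2 rose by 1.13 ± 0.14 (sgCON), 1.60 ± 0.14 (YAPKO1) and 0.99 ± 0.14 (YAPKO2; limma adjusted p = 8.23e-05, 1.53e-06 and 8.64e-05). GATA3 rose by 0.46 ± 0.11, 0.62 ± 0.11 and 0.53 ± 0.11 in the same order (limma adjusted p = 0.0154, 0.0011 and 0.0016). PHOX2A was called in YAPKO2 (0.76 ± 0.16, limma adjusted p = 0.00254), while its values of 0.30 ± 0.16 in sgCON and 0.47 ± 0.16 in YAPKO1 did not pass (limma adjusted p = 0.343 and 0.081). HAND2, of the same list, did not rise in every line: its mean FPKM went from 71.8 to 71.6 (sgCON), 74.5 to 69.2 (YAPKO1) and 75.6 to 85.8 (YAPKO2). For ISL1 the means went from 23.6 to 22.6, 30 to 34.1 and 27.8 to 32.6 in the same order. These genes are part of a longer list, so no count or median is given for it.

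Across the 21 libraries, which share lines and treatments and differ in GC representation, the log2 levels of CHRNA3 and CHRNB4 had a Pearson r of 0.96. CHRNA5 had an r of -0.34 with CHRNA3 and -0.65 with CHRNB2, and CHRNA7 had 0.52 with CHRNA3. Among 2176 variable protein-coding genes, those most like CHRNA3 were MMP15, APC2, STC1, RIMS3 and CRB2, with r from 0.97 to 0.98. Those most like CHRNB4 were RIMS3, CHRNA3, IGFBPL1, SCD5 and DLL3 (0.96 to 0.97). CHRNB2 was most like CELF3, CHGA, RUNDC3A, DAND5 and CCKAR (0.95 to 0.98). The closest to CHRNA7 were SSC4D, SIX2, KCNJ11, HLX and CDON (0.85 to 0.87), and the closest to CHRNA5 were TXNRD1, SHC3, OSBPL6, PPAT and FAM72A (0.78 to 0.79). These values describe patterns over 7 groups and were not tested.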

How the data were processed

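Total RNA from 21 cell line samples was sequenced after removal of ribosomal RNA, per the labels' protocols. The authors deposited FPKM values in a calibrated and an uncalibrated table. The submitters' processing notes list STAR 2.4.2, RSEM 1.3.0 and the hg19 build. The calibrated table is the other multiplied by 1 factor per library (0.927 to 1.07). The columns that name DMSO but no line were taken as parental, since every other column names its line. The labels of the samples give 0.01% DMSO and the series' design 0.1%, and the treatment text, identical for all samples, leaves the parental culture time uncertain.

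Calibrated FPKM were divided by median-ratio factors, and log2(FPKM + 0.5) was fitted with limma 3.58.1 (R 4.3.3, eBayes with trend, 1 mean per group, all 21 libraries, two-sided, Benjamini-Hochberg over all tested genes). Genes at an FPKM of 1 or more in at least 3 libraries were tested. This filter reads the uncalibrated FPKM (16194 genes), a choice made after the numbers under the calibrated (16143) and the scaled values (16092) had been seen. The code was tested on simulated data. The 5 genes were tested in 7 comparisons (CHRNB2 in 4, since it passed the filter only through YAPKO2 with trametinib), and 8 comparisons with sgCON libraries were left untested for them. The genes and lists were chosen with earlier results of these data known. Named were the 5 genes, up to 4 genes of a list with the largest changes, every called gene of the nicotinic, assembly and acetylcholine handling lists, and the 5 genes most like each subunit gene (SD of group means of at least 0.5). PECAM1 was not analysed here, and some genes of the lists are not reported here. Promoter sequences are from RefSeq (GRCh38.p14) and gene positions from GENCODE release 29 (GRCh38). Alternatives were pseudocounts of 0.1 and 1, no filter, both unscaled tables, quantile normalization, only the groups compared, a replicate block and leaving out each library. Added after seeing the data were a GC correction with and without the block, leaving out 3 libraries of high GC trend, and both other filters.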

Additional observations from a re-analysis of the deposited data

How the results depend on the processing

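Of 628 alternative values of the 5 genes in tested comparisons, 580 kept their direction and side of the threshold, and for CHRNA3 all 139 did. The other filters changed no tested call. With only the groups compared, limma no longer called CHRNA5 (-0.52), CHRNA7 (0.84) and CHRNB2 (0.70) with trametinib in YAPKO1, CHRNA5 in YAPKO2 (-0.62), CHRNB4 (0.86) and CHRNA7 (-0.67) between the knockout lines in trametinib, or CHRNA5 in YAPKO1 (0.29) and CHRNB2 in YAPKO2 (0.58) against parental cells. A pseudocount of 1 ended the CHRNB2 calls with trametinib in YAPKO1 (0.43) and against parental cells in YAPKO2 (0.34), quantile normalization ended the same calls (0.61 and 0.56), and a pseudocount of 0.1 gave 1.40 and 1.32 with the calls kept. CHRNA5 against parental cells lost its call on the calibrated table (0.29 in each line) and, in YAPKO1, on the uncalibrated table (0.28). GC correction ended the CHRNB2 call in YAPKO2 against parental cells (0.28, also with the replicate block), and the CHRNA7 response difference passed (-0.59). The cause was not tested.

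Directions that turned belonged to values that had not passed: CHRNA5 between the knockout lines (-0.0029 on the calibrated table in DMSO; in trametinib 0.05 with GC correction, also with the block, and 0.01 without the 3 libraries of high GC trend), and CHRNB2 in YAPKO1 against parental cells (-0.08 with GC correction, also with the block). Leaving out 1 library gave ranges of 0.67 to 0.72 for CHRNB2 with trametinib in YAPKO1, 0.21 to 0.45 for CHRNB4 in YAPKO2, -0.18 to 0.08 (CHRNB4) and -0.76 to -0.53 (CHRNA7) for the response difference, -0.14 to 0.03 (CHRNA7, DMSO) and -0.16 to 0.01 (CHRNA5, trametinib) between the knockout lines, and against parental cells 0.23 to 0.33 (CHRNA5, YAPKO1), 0.29 to 0.37 (CHRNA5, YAPKO2) and 0.49 to 0.65 (CHRNB2, YAPKO2). Single reversed values were 0.08, 0.01 and 0.07 for CHRNB4 and 0.01 and 0.03 for CHRNA7. CHRNB2 could not be fitted without any one YAPKO2 trametinib library, since it then failed the filter.

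Same-numbered libraries did not deviate together (correlations from -0.55 to 0.36, with 0 of 21 pairs of groups over 0.1 throughout), so the main fit uses no pairing. This cannot exclude a pairing, because libraries of a group also differ in GC representation. With the replicate block, CHRNA5 in YAPKO1 against parental cells was not called (0.29, limma adjusted p = 0.0517), and the genes called for the response difference numbered 76 in place of 130.

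Numbers of genes called moved more. With only the groups compared they were 198 in place of 1267 (trametinib in YAPKO1), 695 in place of 3228 (YAPKO2), 2387 in place of 837 (sgCON), 3 in place of 130 (response difference), 305 in place of 1122 and 287 in place of 2281 (YAPKO2 against YAPKO1 in DMSO and in trametinib), and 2728 in place of 4393 (YAPKO1 against parental). GC correction gave 2346, 1641, 375, 1861 and 3440 for trametinib in YAPKO1, in sgCON, the response difference and the knockout lines in DMSO and in trametinib, and with the block 2132, 1476, 306 and 1693 for the first 4. Leaving out the 3 libraries of high GC trend gave 3001 in YAPKO1 and 1316 in sgCON, and the calibrated table gave 63 for the response difference. Leaving out 1 library gave 743 to 1618 (YAPKO1), 478 to 546 (sgCON), 50 to 170 (response difference) and 1549 to 3955 (knockout lines in trametinib). Of the calls in YAPKO1, 62.3% were higher on the uncalibrated table, against 50.7%, and 56.4% in YAPKO2, against 42.9%. On the calibrated table it was 55% in sgCON, against 43.7%.

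Of 857 untested values, 819 moved by less than the spread between replicates. CHRNB2 moved with pseudocounts of 0.1 and 1: to 0.86 and 0.19 with trametinib in sgCON, to 0.38 and 0.07 (YAPKO1) and 1.36 and 0.35 (YAPKO2) against sgCON in DMSO, to 0.92 and 0.32 and to 4.03 and 2.39 in trametinib, and to 0.54 and 0.24 for the response of YAPKO1 and 2.04 (pseudocount of 1) for that of YAPKO2, all against sgCON. With the same pseudocounts it moved to 3.52 and 2.23 with trametinib in YAPKO2 and to 3.11 and 2.07 between the knockout lines in trametinib. GC correction, with and without the block, moved it to -0.01 and 0.35 in DMSO and to 0.32 (YAPKO1) in trametinib, CHRNB4 in YAPKO2 to 1.64 in DMSO and 1.23 in trametinib, and CHRNA5 to 0.32 and 0.46 in DMSO, -0.22 and -0.18 in trametinib and 0.12 with trametinib in sgCON, where quantile normalization gave 0.11. FPKM carry no depth, so precision at the low CHRNB2 levels is unknown.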
